A study of Rattus norvegicus with 12 samples.

Results

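The P2X and P2Y purinergic receptors were represented by 10 genes, chosen by name: the 7 ionotropic receptors P2rx1 to P2rx7 and the 3 metabotropic receptors P2ry1, P2ry2 and P2ry6. Every probe whose gene name in the array files was one of these was taken, without regard to its signal, which gave 12 of the 30367 probes measured. P2rx1 and P2rx2 had a pair of probes each and the other genes 1 probe each. The colon of 12 male Wistar rats was collected at postnatal day 60, and RNA of each rat was hybridized to an array of its own. Group C (rats C1 to C4) held normally handled rats on placebo, Group M (M5 to M8) rats that underwent neonatal maternal separation (NMS, isolation in single cages for 180 min on each of postnatal days 2 to 14) and received placebo, and Group D (D9 to D12) NMS rats that received VSL#3, a mixture of probiotic bacteria. All rats were gavaged daily from day 3 to day 60, and placebo was 100 µl of saline. The rats of all 3 groups also underwent colorectal distension (CRD), so none of them shows the colon without distension. The labels do not say which pups shared a litter, and p values measure the spread between these rats only.

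ATP that leaves cells under stretch or damage acts on both receptor families. P2X receptors are trimeric cation channels that ATP opens, whereas P2Y receptors couple to G proteins and answer to ATP, ADP, UTP or UDP according to the subtype. In the gut, P2rx2 and P2rx3 are known from sensory and enteric neurons, P2ry1 from the inhibitory input of enteric nerves to the muscle, P2rx4 and P2rx7 from immune cells, and P2ry2 and P2ry6 from the epithelium and immune cells. The study asked which pain-related genes of the colon differ after NMS and after VSL#3, and the receptors were compared here between the same 3 groups.

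Signals of related receptors can be told apart only where the probes differ, so the probes of 4 P2X genes that lie in related parts of the transcripts are shown with that of P2ry2, a receptor of the other family. They are printed 5′ to 3′ as the array design gives them, with capitals, in the probes of the other P2X genes, at the bases that equal the base of the P2rx4 probe in the best local match without gaps. The P2ry2 probe, whose best match with that of P2rx4 is 6 bases long, is left in lower case. In the rn4 build, the P2rx4 probe lies at chr12:34945104-34945163 (-), that of P2rx1 (A_64_P019265) at chr10:59903637-59903696 (+), that of P2rx2 (A_64_P138509) at chr12:46487570-46487629 (+), that of P2rx5 at chr10:60045367-60046079 (+), which spans more than the length of the probe, and that of P2ry2 at chr1:158440467-158440526 (-). The files give no exon or UTR for the probes.
P2rx4: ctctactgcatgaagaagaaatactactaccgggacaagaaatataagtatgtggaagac
P2rx1: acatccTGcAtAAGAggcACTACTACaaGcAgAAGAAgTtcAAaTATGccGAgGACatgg
P2rx2: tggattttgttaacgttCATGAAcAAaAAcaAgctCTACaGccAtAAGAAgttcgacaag
P2rx5: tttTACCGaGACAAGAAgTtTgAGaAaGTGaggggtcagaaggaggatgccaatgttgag
P2ry2: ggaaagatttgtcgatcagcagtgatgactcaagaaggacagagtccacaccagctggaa

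The P2rx1 probe matched that of P2rx4 at 34 of 50 aligned bases (68.0%), the P2rx2 probe at 22 of 33 (66.7%) and the P2rx5 probe at 21 of 27 (77.8%), and no run of identical bases was longer than 8. All 12 member probes have 60 bases and a GC content of 35.0% to 55.0%. None shared a run of 15 bases with a probe of another gene, except the probe of P2ry1, which shared 15 with a probe of Retn. Members lie near each other in the genome: the probes of P2ry2 and P2ry6 are 58.5 kb apart on chromosome 1, those of P2rx4 and P2rx7 129.7 kb apart on chromosome 12, and those of P2rx1 and P2rx5 140.8 kb apart on chromosome 10.

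Values are log2 signals from which the log2 of the array's 75th percentile was taken away, so that 0 is the level of that percentile and each step of 1 is a 2-fold difference of signal. They order the rats for a probe but not the probes among each other. Of the 12 member probes, 7 were well above background on all 12 arrays, 2 on 10 or 11 arrays and 3 on few or none. The 7 genes with a probe well above background on 10 or more arrays were P2rx1, P2rx2, P2rx3, P2rx4, P2ry1, P2ry2 and P2ry6. The study analysed 11 arrays, without rat D12, and values of these 11 are given first, with those of all 12 beside many of them.

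The arrays had a 75th percentile of signal between 1434 and 1953, 75.5% to 77.5% of their spots were well above background, and none held a saturated spot. Groups C and M shared 1 slide, each in its own row, and Group D lay on the other slide with its own scan date. In both comparisons of Group D the slide and the group therefore cannot be told apart. In Group M vs Group C the row and the group cannot be told apart. The defining markers of colonic epithelium were detected: 9 of 10 listed genes were measured, and each array showed all 9 well above background. Of the 6 squamous markers listed, Krt5 and Krt14 were well above background on all 12 arrays and Krt13 and Dsg3 on none. Krt6a and Trp63 were not measured. Rats M6 and D12 stood apart from their groups. Over all detected probes, M6 had a mean correlation of 0.990 with Group C and 0.977 with the other rats of Group M. That of D12 was 0.982 with Group M and 0.967 with the other rats of Group D. Rat C2 was as close to Group M (0.9856) as to the other rats of Group C (0.9854). The lymphocyte content also differed within groups: the summed signal of 3 measured B cell markers (of 5 listed, with Cd79a and Pax5 not measured) was 0.216 to 5.35 times the 75th percentile in Group C, 0.279 to 8.08 in Group M, 0.117 to 0.612 in rats D9 to D11 and 13.7 in D12. The highest sum of Group C was that of rat C2, and the lowest of Group M that of rat M6.

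**Figure D1:**
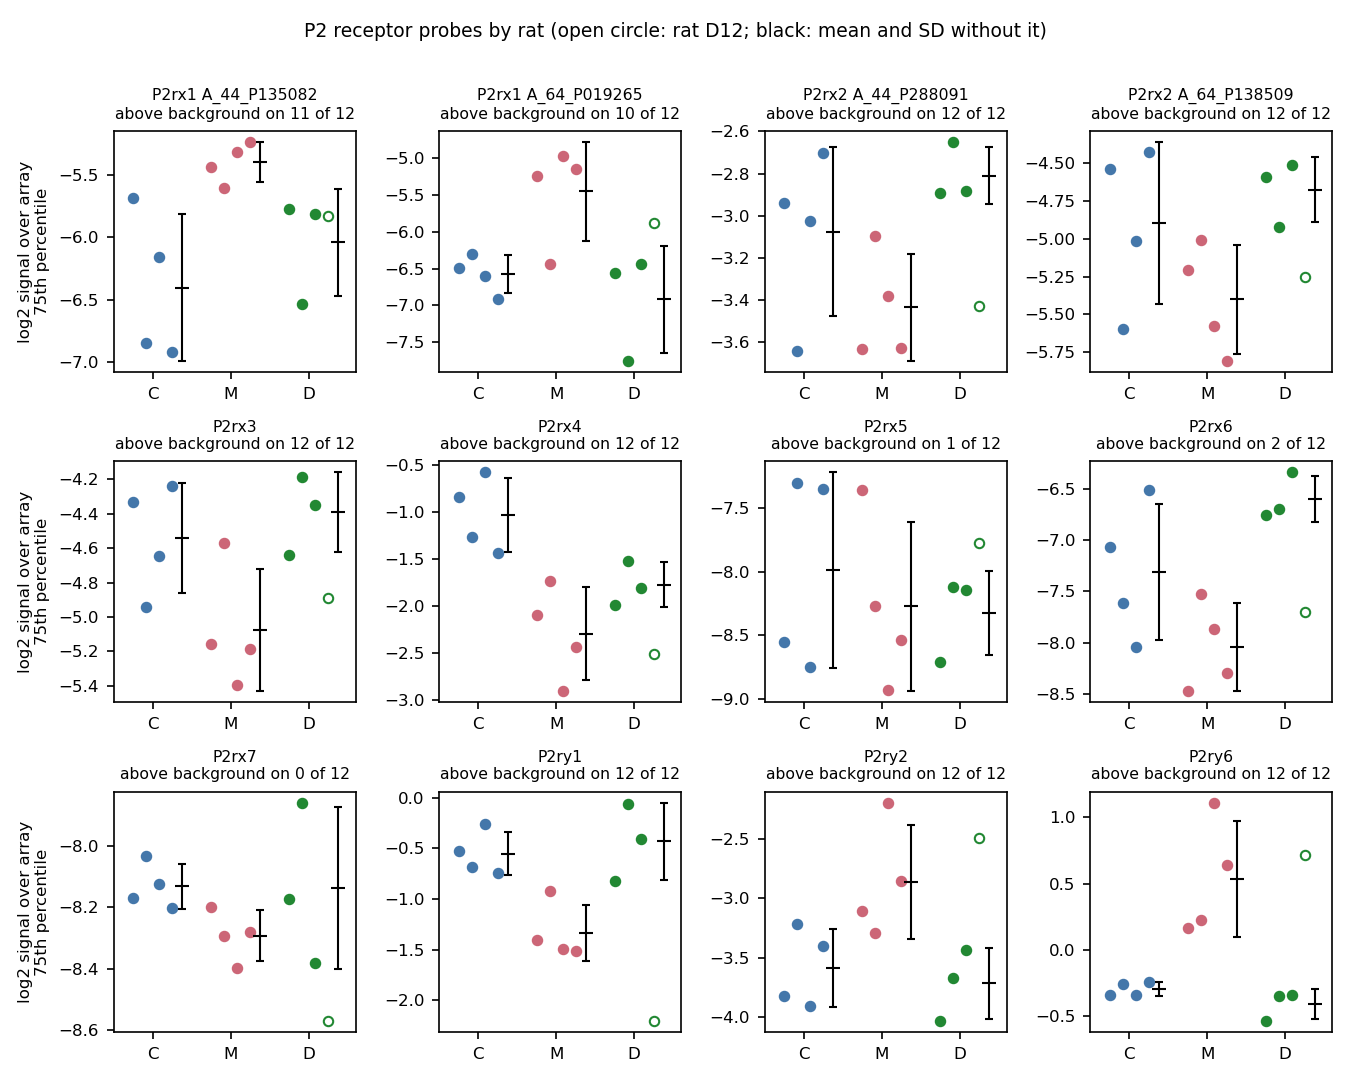
The log2 signal relative to the 75th percentile of the array (vertical axis) is plotted for each of the 12 probes, by group (horizontal axis). Each point is 1 rat, the line is the mean over the 11 rats analysed first and the open point is rat D12. The P2rx4 probe lay between -1.45 and -0.58 in Group C and between -2.91 and -1.74 in Group M.

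P2rx4, a channel of macrophages and other immune cells that is known for its part in neuropathic pain, showed the largest difference of any member between Group M and Group C. Its probe (A_44_P484909) measured -0.84, -1.27, -0.58 and -1.45 in rats C1 to C4, -2.10, -1.74, -2.91 and -2.44 in M5 to M8, -1.99, -1.52 and -1.82 in D9 to D11 and -2.52 in D12. Every rat of Group M, and every rat of Group D, lay below every rat of Group C, whereas Groups D and M overlapped. The mean was -1.04 ± 0.39 (SD, n = 4) in Group C, -2.30 ± 0.50 (SD, n = 4) in Group M and -1.78 ± 0.24 (SD, n = 3) in rats D9 to D11. Group M was 2.40-fold below Group C (log2 difference -1.26, SE 0.26, adjusted p by limma 0.0882, where the adjustment, by Benjamini and Hochberg, covers every probe of the array). That probe therefore missed the adjusted threshold of 0.05, but it passed the criterion of the study's methods, which asks for unadjusted p values of 0.05 or less in a Tukey test and in the analysis of variance before it, and for a 2-fold difference. The adjusted p was 0.168 with all 12 arrays. Without rat M6 the log2 difference was -1.45 and the adjusted p by limma was 0.0121. Of all 30367 probes, 4914 then passed that threshold. With any other rat left out, no member passed it in this comparison. Group D differed from Group M by 0.52 (SE 0.29, adjusted p by limma 0.319) and from Group C by -0.74 (95% interval -1.37 to -0.11, adjusted p by limma 0.789). With rat D12 the difference between Groups D and C was -0.93 and its adjusted p by limma was 0.577. In Group D vs Group C, P2rx4 was the one member whose unadjusted p was 0.05 or less. This is 1 of 12 member probes, against 5.97% of all probes. With all 12 arrays, Groups M and C did not overlap for 9.23% of all probes and Groups D and C for 4.32%.

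P2rx1 is the channel of smooth muscle and platelets, and its signal was low. The probe with the higher signal (A_44_P135082, chr10:59904473-59904532, rn4) measured -5.68, -6.85, -6.16 and -6.92 in C1 to C4, -5.43, -5.60, -5.31 and -5.24 in M5 to M8, -5.77, -6.54 and -5.81 in D9 to D11 and -5.83 in D12. All rats of Group M lay above all rats of both other groups. Group M exceeded Group C by 1.01 on the log2 scale (SE 0.28, 2.01-fold, adjusted p by limma 0.110), which passed the criterion of the methods and not the adjusted test. The criterion was passed narrowly and was lost with quantile normalization (0.97), median scaling (0.97), the authors' matrix (0.89) and normexp background correction (0.22), and without any one of rats C2 (0.86), C4 (0.83), M5 (1.02), M7 (0.98) or M8 (0.95). The other probe (A_64_P019265) measured -6.49, -6.30, -6.60 and -6.91 in C1 to C4, -5.25, -6.44, -4.97 and -5.16 in M5 to M8, -6.56, -7.75 and -6.44 in D9 to D11 and -5.88 in D12. Rat M6 lay within the range of Group C for this probe, and the other 3 rats of Group M lay above it. The log2 difference of this probe was 1.12 between Groups M and C (SE 0.36, adjusted p by limma 0.130) and -1.46 between Groups D and M (SE 0.39, adjusted p by limma 0.101), and the latter passed the criterion of the methods. Rat D12 brought the latter to -1.20 (adjusted p by limma 0.281), normexp to -0.37 and leaving out rat D10 to -1.04, and each of these lost the criterion, as did leaving out M5 (-1.39), M7 (-1.30) or M8 (-1.36). In rats D9 to D11 that probe was well above background on 1 of 3 arrays, so the low level of Group D is near background. The probes disagreed on Group D vs Group C, with log2 differences of 0.36 (95% interval -0.31 to 1.03) and -0.34 (95% interval -1.22 to 0.53).

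P2rx2 and P2rx3, which form channels of sensory neurons alone or together, had a lower mean in Group M than in the other groups, by amounts that passed neither test. For P2rx2 (A_44_P288091, chr12:46488004-46488063, rn4), the rats measured -2.94, -3.64, -3.02 and -2.70 in C1 to C4, -3.63, -3.10, -3.38 and -3.63 in M5 to M8, -2.89, -2.65 and -2.88 in D9 to D11 and -3.43 in D12. Rats D9 to D11 lay above all rats of Group M, and rat C2 was as low as the lowest of Group M. Its log2 difference was -0.36 (SE 0.20, adjusted p by limma 0.316) between Groups M and C and 0.62 (SE 0.22, adjusted p by limma 0.147) between Groups D and M. With rat D12 the latter was 0.47 (adjusted p by limma 0.431), and Groups D and M overlapped. The other P2rx2 probe (A_64_P138509) gave the same signs, -0.51 and 0.72. P2rx3 (A_64_P018681, chr3:68228045-68228104, rn4) measured -4.34, -4.94, -4.65 and -4.24 in C1 to C4, -5.16, -4.57, -5.39 and -5.18 in M5 to M8, -4.64, -4.19 and -4.35 in D9 to D11 and -4.89 in D12. Rat M6 again lay within Group C, and the other 3 rats of Group M lay below all rats of Group C. Its log2 difference was -0.54 between Groups M and C (SE 0.21, adjusted p by limma 0.169) and 0.68 between Groups D and M (SE 0.23, adjusted p by limma 0.137). With rat D12 the latter was 0.56 (adjusted p by limma 0.356). Without rat M6 the P2rx3 difference between Groups M and C was -0.71 and its adjusted p by limma was 0.0333. Of all 30367 probes, 4914 then passed the adjusted threshold.

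P2rx5, P2rx6 and P2rx7 were at or near background. The probe of P2rx7, the channel that drives the release of interleukin 1 from macrophages, was well above background on no array and lay between -8.57 and -7.86 in all 12 rats. P2rx5 was well above background in rat D12 alone (-7.78). P2rx6 (A_64_P043259, chr11:85431562-85431621, rn4) was well above background in 2 of the rats D9 to D11 and in no other. It measured -7.06, -7.61, -8.05 and -6.51 in C1 to C4, -8.48, -7.52, -7.87 and -8.30 in M5 to M8, -6.75, -6.69 and -6.33 in D9 to D11 and -7.71 in D12. Rat C4, at -6.51, was not well above background although it lay above D9 and D10, so no fold is given. The log2 difference between Groups D and M was 1.45 (SE 0.35, adjusted p by limma 0.0870) and passed the criterion of the methods whether or not rat D12 was fitted. It was 0.20 with normexp and 1.32 without rat D11, and both lost the criterion.

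**Figure D2:**
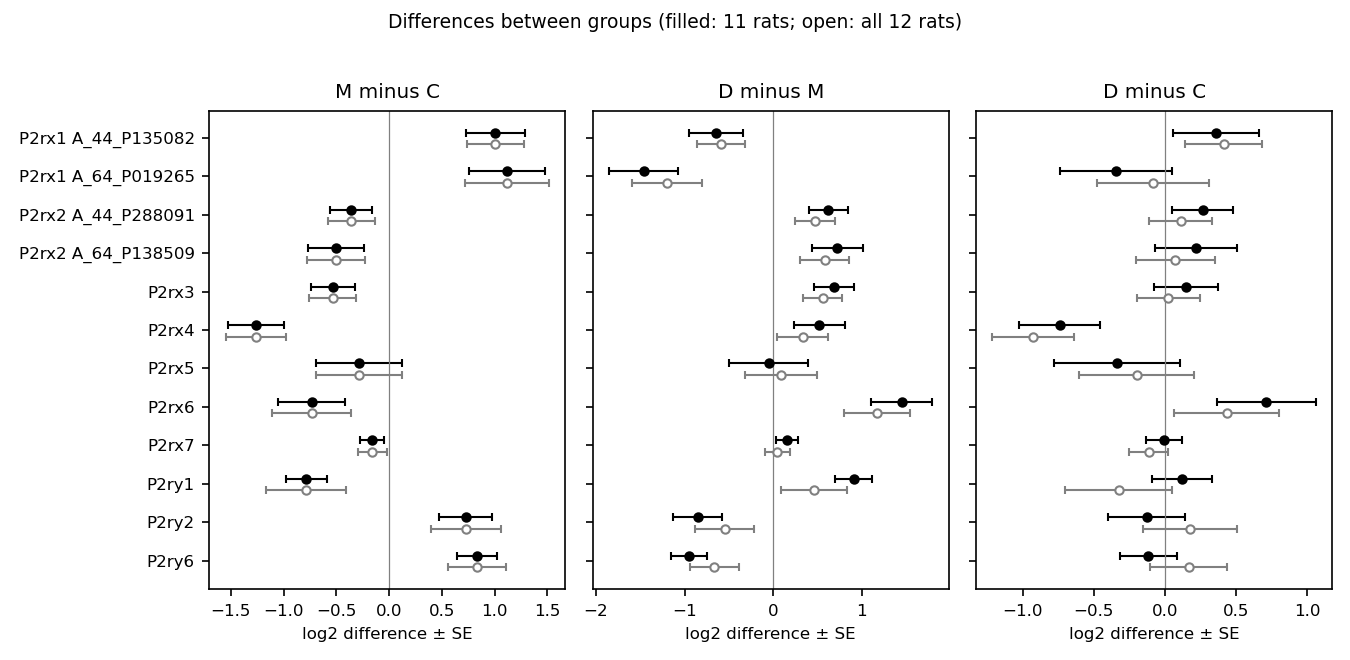
The log2 difference of each probe (horizontal axis, with bars of 1 SE) is plotted for the 3 comparisons, with filled points for 11 rats and open points for all 12. P2rx4 lay at -1.26 in Group M vs Group C and P2ry6 at -0.95 in Group D vs Group M, and rat D12 brought the latter to -0.67.

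P2ry1 is the ADP receptor through which enteric nerves relax the colonic muscle, and all rats of Group M lay below all rats of Group C. Its probe (A_64_P069051, chr2:150465769-150465828, rn4) measured -0.52, -0.68, -0.26 and -0.74 in C1 to C4, -1.41, -0.92, -1.50 and -1.52 in M5 to M8, -0.82, -0.06 and -0.41 in D9 to D11 and -2.21 in D12. Rats D9 to D11 spanned the range of Group C, whereas rat D12 was the lowest of all 12. Group M was 1.72-fold below Group C (log2 difference -0.79, SE 0.19, adjusted p by limma 0.0992), and Group D exceeded it 1.88-fold (0.91, SE 0.21, adjusted p by limma 0.0847). Neither difference reached 2-fold or the adjusted threshold. With rat D12 the latter was 0.46 and its adjusted p by limma 0.642. Without rat M6 the adjusted p by limma was 0.0155 for Group M vs Group C and 0.0143 for Group D vs Group M. Of all 30367 probes, 4914 and 4504 then passed the adjusted threshold.

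P2ry2 and P2ry6, the receptors of UTP and ATP and of UDP, went the other way. For P2ry6 (A_42_P814235, chr1:158381909-158381968, rn4), 10 spots per array gave -0.34, -0.26, -0.34 and -0.24 in C1 to C4, 0.17, 0.23, 1.11 and 0.64 in M5 to M8, -0.54, -0.35 and -0.34 in D9 to D11 and 0.72 in D12. The mean of Group C was -0.30 ± 0.05 (SD, n = 4). All rats of Group M lay above them, and D12 lay among Group M. Group M exceeded Group C 1.78-fold (log2 difference 0.83, SE 0.19, adjusted p by limma 0.0923), and Group D was 1.93-fold below Group M (-0.95, SE 0.20, adjusted p by limma 0.0810). P2ry2 (A_44_P520159) measured -3.83, -3.22, -3.90 and -3.41 in C1 to C4, -3.10, -3.30, -2.20 and -2.85 in M5 to M8, -4.04, -3.67 and -3.44 in D9 to D11 and -2.50 in D12. Rat M6 fell below rat C2, so Groups M and C overlapped, and rats D9 to D11 lay below all rats of Group M. Its log2 difference was 0.73 between Groups M and C (SE 0.25, adjusted p by limma 0.142) and -0.85 between Groups D and M (SE 0.27, adjusted p by limma 0.131). Without rat M6, P2ry6 had an adjusted p by limma of 0.0169 and P2ry2 of 0.0481 in Group M vs Group C. Of all 30367 probes, 4914 then passed the adjusted threshold. With rat D12, the differences between Groups D and M were -0.67 for P2ry6 and -0.55 for P2ry2, with adjusted p by limma of 0.372 and 0.531.

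No member probe passed limma's adjusted test in any of the 3 comparisons, whether 11 or 12 arrays were fitted. Over all probes, that test called 0.204% in Group M vs Group C, 0.171% in Group D vs Group M and 0.00659% in Group D vs Group C, and with 12 arrays 0.0395%, 0.0198% and 0.00659%. Unadjusted p values of 0.05 or less were found for 8, 8 and 1 of 12 member probes, against 22.7%, 21.6% and 5.97% of all probes, and with 12 arrays for 5, 4 and 1, against 18.5%, 12.2% and 6.85%. By the criterion of the methods, 2 of 12 passed in Group M vs Group C (P2rx1 higher, P2rx4 lower), 2 in Group D vs Group M (P2rx1 lower, P2rx6 higher) and 0 in Group D vs Group C, against 2.31%, 2.66% and 0.369% of all probes. With 12 arrays these counts were 2, 1 (P2rx6) and 0, against 1.56%, 0.949% and 0.343%. Groups did not overlap for 4, 7 and 2 of 12 probes, against 9.23%, 15.8% and 7.57% of all. The 7 probes belong to 6 genes and include that of P2rx6, which was near background. The 2 probes are those of P2rx4 and P2ry6, and for P2ry6 rats C1 and D11 both measured -0.344. With all 12 arrays, Groups D and M did not overlap for 1 of 12 probes, against 5% of all, and Groups D and C for 1 (P2rx4), against 4.32%. Over the 10 genes, the median log2 difference was -0.32 in Group M vs Group C, 0.34 in Group D vs Group M and 0.06 in Group D vs Group C, where the medians of all probes were -0.01, 0.01 and -0.01. The comparisons share their rats: Group M enters the first and the second with opposite sign. In RNA of whole tissue, fewer cells of a type and less RNA per cell cannot be told apart.

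**Figure D3:**
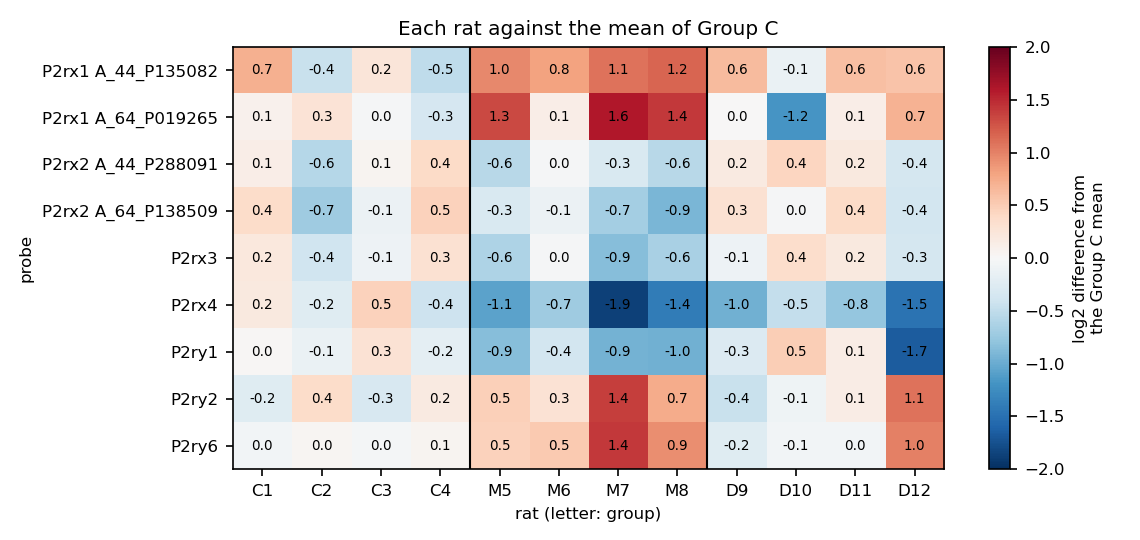
The colour of each cell is the log2 signal of a probe in a rat minus the mean of Group C, for probes well above background on 10 or more arrays (rows) and the 12 rats (columns). Rat M6 resembles Group C in several rows, and rat D12 resembles Group M, as in P2ry6, where it measured 0.72.

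The rats were also placed by the members alone. For each of the 12 probes, a rat was assigned to the group whose mean over the other rats was nearest, with D12 left out of the means. Rats M7 and M8 were nearest to Group M for 11 probes each and M5 for 9, but M6 for 4, with 7 nearest to Group C. D12 was nearest to Group M for 10 probes and to Group D for 1. Rats of Groups C and D could hardly be told apart in this way. Rat D10 was nearest to Group C for 7 probes and to Group D for 5, and rat C4 to Group C for 5 and to Group D for 7.

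Across the 12 rats, the 6 genes whose representative probe was well above background on every array formed 15 pairs, all of them computed. The 6 pairs among P2rx2, P2rx3, P2rx4 and P2ry1 had Pearson correlations of 0.45 to 0.89, P2ry2 and P2ry6 one of 0.94, and the 8 pairs between these sets -0.83 to -0.62. The rats differ by group and these correlations are a description. For P2ry2 and P2ry6, neighbours on chromosome 1, Spearman's rho was 0.90 and Pearson's r was 0.84 without rats M7 and D12, 0.92 among the 8 rats of Groups C and M, and 0.92 for deviations from the group means. For P2rx4 and P2ry1, Pearson's r was 0.78 over the 12 rats, Spearman's rho 0.80, and r among the 8 rats of Groups C and M 0.97. For deviations from the group means, their r was 0.76. P2rx2 and P2rx3, which share a channel, had an r of 0.89, a rho of 0.85 and an r of 0.85 for those deviations. Thus rats of one group also differed in the members together.

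**Figure D4:**
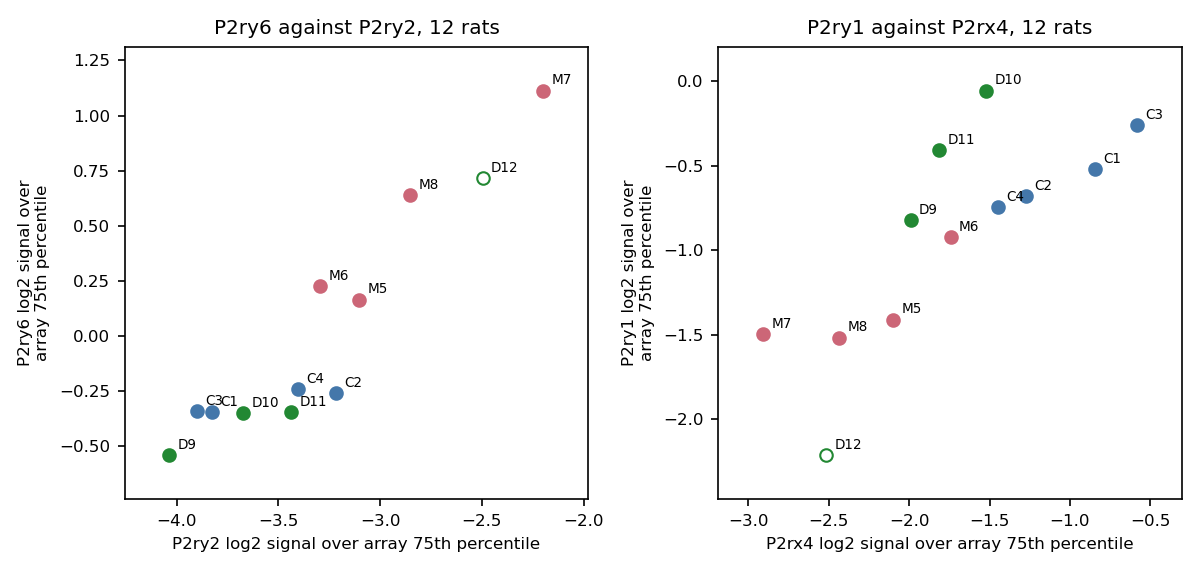
Each point is 1 rat, with the log2 signals of the first gene on the horizontal and of the second on the vertical axis. The pairs are P2ry2 with P2ry6 and P2rx4 with P2ry1. P2ry2 and P2ry6 (r 0.94) run together over the rats, as do P2rx4 and P2ry1 (r 0.78). M6 lies at the edge of Group M towards Group C, and D12 lies among or beyond Group M.

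Some lists of cell type markers moved with the members over the rats and others did so less, and the lists given here were chosen after their correlations were seen. The summed signal of the 8 macrophage markers was 7.72 to 9.78 times the 75th percentile in Group C, 9.75 to 12.9 in Group M, 8.92 to 9.95 in rats D9 to D11 and 12.0 in D12, and each array showed all 8 well above background. Cd14 and Aif1 made up 66.8% to 80% of this sum, and by the mean 5 of the 8 markers were higher and 3 lower in Group M than in Group C. On the log2 scale, the correlation of this sum over the 12 rats was -0.92 with P2rx4 and 0.83 with P2ry6. The sum of Ano1 and Kit, markers of interstitial cells of Cajal, came to 97.8% to 99% from Ano1 and was 8.71 to 13.9 in Group C, 5.43 to 10.5 in Group M, 11.4 to 12.7 in rats D9 to D11 and 5.28 in D12, with a correlation of 0.92 with P2ry1 and -0.91 with P2ry2. The 6 mast cell markers summed to 0.473 to 1.26 in Group C, 1.18 to 2.22 in Group M, 0.882 to 1.21 in rats D9 to D11 and 1.64 in D12, and 6 of 6 were higher in Group M than in Group C by the mean. The sum of the B cell markers had a correlation of -0.84 with P2rx2. That of the skeletal muscle markers was 1.41 to 2.93 in Group C, 2.02 to 5.98 in Group M, 3.06 to 3.44 in rats D9 to D11 and 4.13 in D12, with a correlation of -0.88 with P2rx4. The sum of the enteric neuron markers had lower correlations, 0.59 with P2rx2, 0.44 with P2rx3 and 0.23 with P2ry1. For the smooth muscle markers the correlation with P2ry1 was -0.20. The part of these cells in the differences of the receptors was not tested.

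The genes whose signal followed a member most closely were sought among 11767 named genes well above background on all 12 arrays. They were Rnf139 (0.95) and Pwwp2b (0.93) for P2rx2, Surf1 and Rabac1 (0.97 each) for P2rx3, Mvk (0.97) and Cmah (0.96) for P2rx4, Ppargc1b and Tp53bp2 (0.97 each) for P2ry1, Ccnh and Pspc1 (0.97 each) for P2ry2, and Ifrd1 (0.97) and Cnbp (0.96) for P2ry6, by Pearson correlation of the log2 signals.

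Among the partners of the receptors, 46 genes in 6 lists were examined, of which 45 were measured (Pnp was not found on the array under that name). None passed the adjusted test in any comparison. With an unadjusted p of 0.05 or less, 8 were higher and 11 lower in Group M than in Group C, 9 higher and 8 lower in Group D than in Group M, and 0 differed between Groups D and C, against the 22.7%, 21.6% and 5.97% of all probes given above. With all 12 arrays, 7 were higher and 11 lower in the first comparison, 3 higher and 5 lower in the second, and 0 higher and 1 lower in the third. The criterion of the methods was passed by 3, 4 and 0 of 45, and by 3, 1 (Enpp3) and 0 with 12 arrays, against 2.31%, 2.66% and 0.369% of all probes with 11 arrays. In each comparison the median difference of the 45 genes, -0.03, -0.09 and -0.01, was close to that of all probes.

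Among the enzymes of extracellular nucleotides, Enpp3 and Entpd1 passed that criterion in at least 1 comparison. Enpp3, a membrane enzyme that cleaves nucleotides, measured 0.13, 0.49, -0.10 and 0.08 in C1 to C4, 1.11, 0.57, 1.98 and 1.23 in M5 to M8, 0.05, -0.06 and 0.01 in D9 to D11 and 0.55 in D12. All rats of Group M lay above all rats of Group C and rats D9 to D12. It exceeded Group C by 1.07 on the log2 scale in Group M (SE 0.25, adjusted p by limma 0.0967), and its log2 difference between Groups D and M was -1.22 (SE 0.27, adjusted p by limma 0.0830). Entpd1, which converts ATP to AMP, measured -4.72, -4.38, -4.74 and -4.59 in C1 to C4, -4.35, -3.59, -3.58 and -4.33 in M5 to M8, -4.95, -5.19 and -5.04 in D9 to D11 and -4.60 in D12. Its log2 difference was 0.64 in Group M vs Group C (adjusted p by limma 0.119) and -1.10 in Group D vs Group M (adjusted p by limma 0.0710), where it was -0.98 with rat D12 and no longer passed the criterion. Of the 12 enzymes measured, 6 were higher and 6 lower by the mean in Group M vs Group C, with a median of 0.08.

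Among the genes of nucleotide release and nucleoside uptake, Gja1, a connexin whose hemichannels release ATP, measured -1.27, -1.03, -1.50 and -1.59 in C1 to C4, -0.60, -0.93, 0.56 and -0.30 in M5 to M8, -1.14, -1.59 and -1.33 in D9 to D11 and -0.60 in D12. It passed the criterion of the methods in both comparisons with Group M, at log2 differences of 1.03 (adjusted p by limma 0.109) and -1.03 (adjusted p by limma 0.116), but with rat D12 the latter was -0.85 and did not pass. Of the 9 genes of this list, 6 were higher and 3 lower by the mean in Group M vs Group C, with a median of 0.30. Among the lower was Slc17a9, named after its values were seen, which passed the criterion in no comparison. Slc17a9 measured 2.05, 1.52, 2.12 and 2.48 in C1 to C4, 1.16, 1.93, -0.18 and 0.66 in M5 to M8, 1.48, 2.08 and 1.95 in D9 to D11 and 0.18 in D12. Pycard, the adaptor of the inflammasome, measured 2.95, 2.19, 1.85 and 2.69 in C1 to C4, 1.04, 1.74, 0.35 and 0.52 in M5 to M8, 1.81, 2.25 and 2.23 in D9 to D11 and 1.14 in D12. Its log2 difference was -1.51 in Group M vs Group C (SE 0.32, adjusted p by limma 0.0895) and 1.18 in Group D vs Group M (SE 0.35, adjusted p by limma 0.117), where it was 0.94 with rat D12 and did not pass the criterion. The list of the inflammasome and interleukin 1 output was mixed in Group M vs Group C, with 2 genes higher and 4 lower by the mean and a median of -0.28. The 2 higher ones, named after their values were seen, were Il1rn, the antagonist of the interleukin 1 receptor, at 1.95 (SE 0.70, adjusted p by limma 0.149) and Il1b at 1.26 (SE 0.55, adjusted p by limma 0.206).

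Gna11, which couples P2Y receptors of the Gq class to phospholipase C, measured -2.14, -2.64, -2.21 and -2.54 in C1 to C4, -3.19, -2.96, -3.39 and -3.46 in M5 to M8, -2.50, -2.42 and -2.58 in D9 to D11 and -3.74 in D12. All rats of Group M lay below all rats of Group C and below rats D9 to D11. Its difference of -0.87 between Groups M and C (SE 0.15, adjusted p by limma 0.0564) came nearest to the adjusted threshold of the 45 genes in that comparison, and with all 12 arrays its adjusted p by limma was 0.198 and that of Pycard, 0.171, was the lowest. Of the other receptors, P2ry12, the ADP receptor of platelets and microglia, had a log2 difference of -0.65 between Groups M and C (SE 0.25, adjusted p by limma 0.164), and its values of -2.21, -2.55, -3.50 and -2.65 in M5 to M8 lay below those of Group C, -2.17, -1.92, -2.15 and -2.05. P2ry10, well above background on 7 of 12 arrays and named after its values were seen, differed the other way, by 1.33 (SE 0.82, adjusted p by limma 0.363). Among the 4 adenosine receptors, Adora2a differed most, by 0.79 in Group M vs Group C (adjusted p by limma 0.150) and by -0.80 in Group D vs Group M (adjusted p by limma 0.174).

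**Figure D5:**
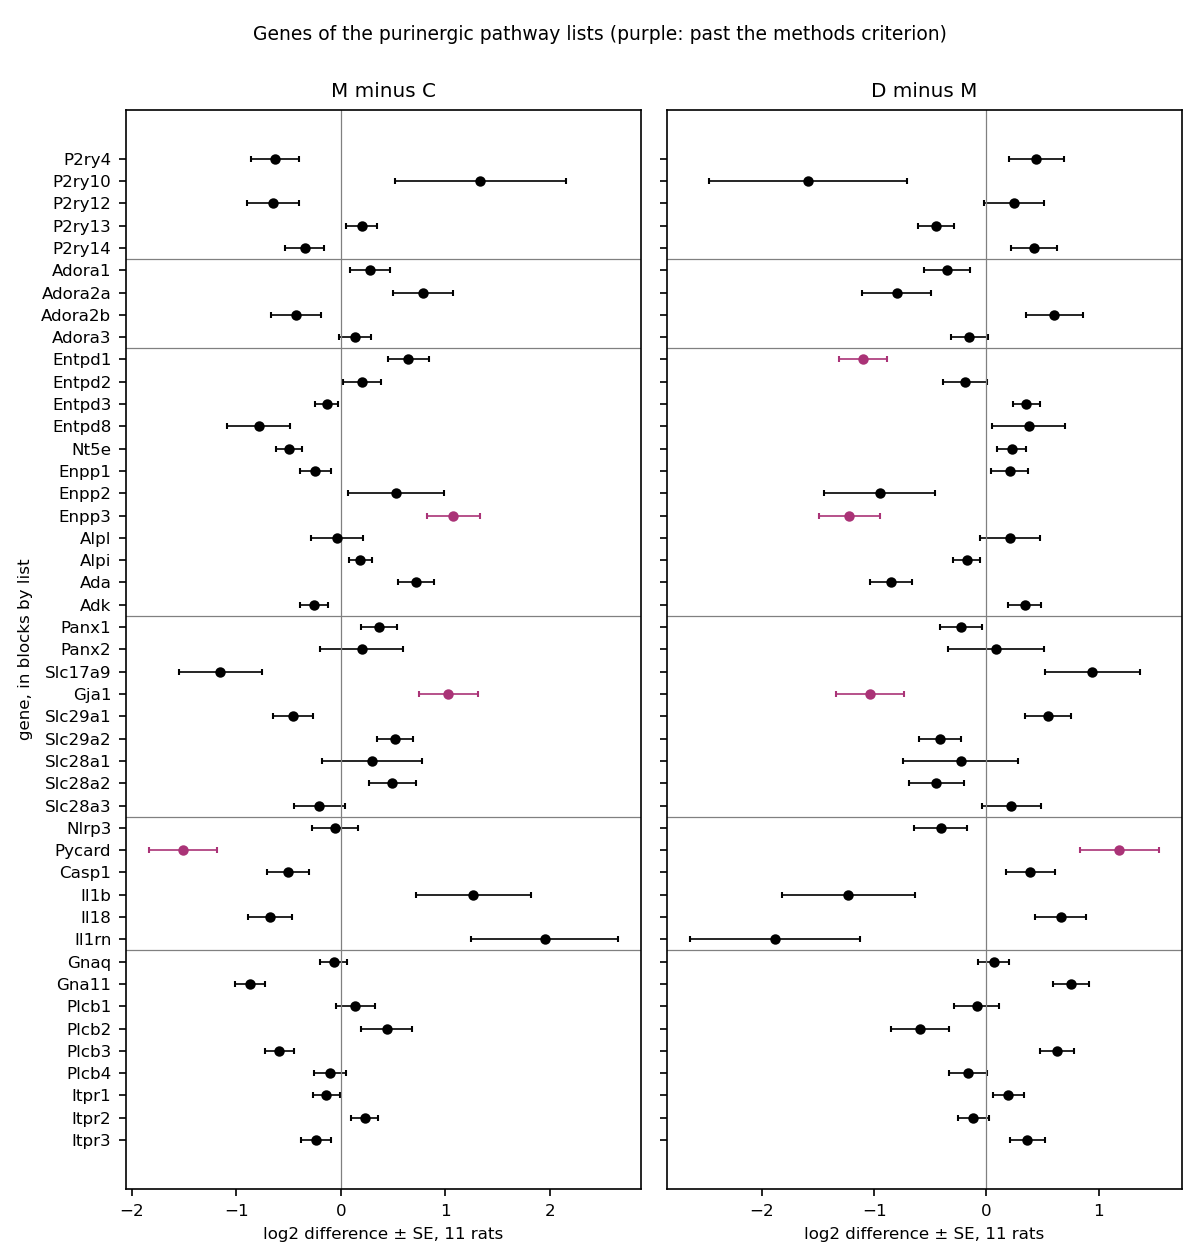
Each point is the log2 difference of 1 gene (horizontal axis, with bars of 1 SE), with the genes in blocks by the 6 pathway lists (vertical axis). The panels show Group M vs Group C and Group D vs Group M. The points of Pycard at -1.51 and Enpp3 at 1.07 in Group M vs Group C are the extremes by size among those that passed the criterion of the methods.

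The start regions of the members were read from RefSeq (build GRCr8), 250 bases before to 50 after the start, with 7 of 10 members matched by symbol. P2rx2, P2rx5 and P2ry6 had no entry. Those of P2rx4, P2ry1 and P2ry2, which varied together over the rats in the same or the opposite direction, are shown 5′ to 3′ on the strand of the gene, at chr12:39523040-39523339 (-), chr2:147391411-147391710 (+) and chr1:164779439-164779738 (-). Capitals mark matches on either strand to the TATA box core (TATAAA), the GC box core (GGGCGG), the CCAAT box in its short form and the palindromic AP-1 motif (TGANTCA).
P2rx4: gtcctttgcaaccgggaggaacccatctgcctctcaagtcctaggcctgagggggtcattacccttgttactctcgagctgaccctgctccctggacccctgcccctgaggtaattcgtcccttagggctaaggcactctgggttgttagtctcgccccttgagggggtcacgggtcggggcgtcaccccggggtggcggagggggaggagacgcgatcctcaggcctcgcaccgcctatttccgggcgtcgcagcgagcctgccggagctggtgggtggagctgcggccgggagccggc
P2ry1: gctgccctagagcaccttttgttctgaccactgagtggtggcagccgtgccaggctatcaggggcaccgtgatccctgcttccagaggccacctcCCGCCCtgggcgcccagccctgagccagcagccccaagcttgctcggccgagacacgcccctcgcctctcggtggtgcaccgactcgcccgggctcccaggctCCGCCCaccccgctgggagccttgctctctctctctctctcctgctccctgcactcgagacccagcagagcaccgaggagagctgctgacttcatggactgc
P2ry2: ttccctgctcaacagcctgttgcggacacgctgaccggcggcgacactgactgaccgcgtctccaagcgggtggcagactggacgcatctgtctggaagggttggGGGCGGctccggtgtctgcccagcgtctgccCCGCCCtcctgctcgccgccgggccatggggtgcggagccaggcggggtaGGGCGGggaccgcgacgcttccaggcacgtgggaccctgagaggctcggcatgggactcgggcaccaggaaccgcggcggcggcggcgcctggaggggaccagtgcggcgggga

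The GC box core had 3 matches in P2ry2, 2 in P2ry1 and none in P2rx4, and of all 33469 regions of the same length 33.1% hold it. The other motifs had no match in these 3 regions, and of all regions 14.2% hold the TATA box core, 37.5% the CCAAT box and 7.3% the AP-1 motif. None of the motifs overlaps another in these 3 regions. A match describes the sequence and does not show that a factor binds there.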

How the data were processed

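Colonic RNA of 12 rats was measured on 1-colour (Cy3) Agilent arrays. The authors deposited the intensity of each spot as Feature Extraction 10.5.1.1 wrote it, background-corrected and not scaled between arrays, and a matrix of quantile-normalized log2 values, used as an alternative.

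Each log2 intensity was expressed against the 75th percentile of its array. Control spots and outlier spots were dropped, and replicate spots were averaged. A probe counted as well above background on an array where at least 50% of its spots were so marked. Groups were fitted in one model on 11 arrays with limma 3.58.1 (R 4.3.3), with Benjamini-Hochberg adjustment over all probes and a threshold of 0.05. The criterion of the study's methods was computed on the same values. The procedure was tested on simulated data. A gene of a list was measured by its probe of highest mean signal. Named were all members, of each pathway list the genes past a test or, failing that, the one of largest difference among those well above background on all arrays, and the 2 genes most like each member. The members and lists were chosen with earlier results of these data known. The alternatives comprised all 12 arrays, normexp background correction, other scalings, the authors' matrix, a filter on dim probes, the replicate block, array weights and each rat left out. Figures were drawn with matplotlib 3.10.9.

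The study lists the P2rx4 probe used here (A_44_P484909) among the pain genes downregulated after NMS. A further probe stands there under the same short name, with the long name of an angiotensin II receptor. The array files also name a gene other than P2rx4 for that further probe, and it was not used.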

Additional observations from a re-analysis of the deposited data

Results flagged for a closer look

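In 36 groups of 4 rats (12 probes, 3 groups), 1 rat lay far from the other 3 in 2 cases, by a gap to the nearest of the others above Dixon's critical value at 95%. Chance alone gives about 1 in 20 groups.

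In the P2rx1 probe A_44_P135082, rat D10 measured -6.54, while the other 3 rats of Group D lay between -5.83 and -5.77, and the gap was 0.925 of the range. In P2ry6, rat D12 measured 0.72, while D9 to D11 lay between -0.54 and -0.34, and the gap was 0.844 of the range. The cause was not tested in either case.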

How the results depend on the processing

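Of 753 recomputed differences of single probes, 33 newly passed the adjusted threshold. In 24 the sign changed, of values that had not passed, and 3 of these moved by more than the spread between replicates. Moves that kept their sign were not set against that spread, and some were large. With normexp, P2rx6 in Group D vs Group M went from 1.45 to 0.20. P2rx4 in Group M vs Group C ranged from -1.45 to -1.06 over 21 settings, with adjusted p by limma of 0.00367 to 0.245.

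In the adjusted test of Group M vs Group C (0 of 12 probes), array weights gave 10, an unadjusted p 8, and leaving out each rat in turn 0 to 7. In Group D vs Group M (0), normexp gave 2, array weights 8, an unadjusted p 8, and leaving out each rat 0 to 6. The 7 and the 6 arose without rat M6, when 4914 and 4504 of all probes passed, and the array weights called 8585 and 6882 of all probes. In Group D vs Group C (0), an unadjusted p gave 1.

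By the criterion of the methods in Group M vs Group C (2), normexp, quantile normalization, median scaling and the authors' matrix each gave 1, and leaving out each rat 1 to 3. In Group D vs Group M (2), all 12 arrays gave 1, normexp 0, the filter on dim probes 1, and leaving out each rat 1 to 4. Group D vs Group C gave 0 throughout. The causes were not tested.

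The replicate numbers pair no rats: deviations of same-numbered rats correlated between -0.72 and 0.58. With the replicate number as a block, 0 members passed in each comparison, and 1, 1 and 0 of all probes. Signals near background limit P2rx1, P2rx5, P2rx6 and P2rx7.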
